A study of Mus musculus with 31 samples.

Results

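The comparison described here is that of 7 livers from pups given T3 together with T4 against 6 livers from pups given T3 alone, 13 of the 31 livers in the series, and the members were taken from the treatment labels. All 13 pups were Dio1KO/Dio2KO/Pax8KO mice on the C57Bl/6J background, killed at postnatal day 14 after injections every other day from postnatal day 2. They lacked Pax8, without which the thyroid does not form its hormone-making follicles, and both deiodinases that turn T4 into T3. The remaining pups were Dio1KO/Dio2KO/Pax8KO mice given vehicle (n = 5, called vehicle) or T4 (n = 8), and Dio1KO/Dio2KO/Pax8Het littermates with a thyroid given vehicle (n = 5, called control). Every group, control included, thus lacked type 1 and type 2 deiodinase. The doses were not given in the sources used here, and the samples carry no label that says whether littermates fall in the same group.

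Thyroxine (T4) is the main product of the thyroid, and triiodothyronine (T3), formed from it by removal of 1 iodine, binds the nuclear thyroid hormone receptors more tightly. In liver the receptors act on genes of lipid and carbohydrate metabolism. Cholesterol synthesis is governed by SREBP2, a membrane-bound transcription factor that is released when sterols run low and that acts on the genes of the mevalonate pathway and of sterol uptake, while SREBP1c governs fatty acid synthesis. The series asks what T4 does where these deiodinases cannot convert it, and the comparison asks what it adds where T3 is already supplied.

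The promoters of 4 genes of the cholesterol list are shown because the results below turn on that list. They are the 250 bases before the start of the gene on the plus strand in RefSeq GRCm38.p6, at chr5:114444019-114444268 for Mvk, chrX:72918271-72918520 for Nsdhl, chr13:8885356-8885605 for Idi1 and chr13:119690101-119690350 for Hmgcs1. Capitals mark CCAAT on either strand (read as ATTGG on the other) and the SREBP consensus TCACNCCAC on either strand.
Mvk: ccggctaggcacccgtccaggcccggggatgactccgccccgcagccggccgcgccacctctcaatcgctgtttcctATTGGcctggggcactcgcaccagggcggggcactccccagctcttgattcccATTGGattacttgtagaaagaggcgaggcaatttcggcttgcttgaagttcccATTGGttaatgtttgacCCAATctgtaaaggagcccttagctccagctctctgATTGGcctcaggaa
Nsdhl: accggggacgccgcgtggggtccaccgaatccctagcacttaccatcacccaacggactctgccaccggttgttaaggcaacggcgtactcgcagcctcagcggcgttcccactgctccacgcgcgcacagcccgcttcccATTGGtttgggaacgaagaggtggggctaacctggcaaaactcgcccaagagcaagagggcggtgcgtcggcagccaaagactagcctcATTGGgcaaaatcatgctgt
Idi1: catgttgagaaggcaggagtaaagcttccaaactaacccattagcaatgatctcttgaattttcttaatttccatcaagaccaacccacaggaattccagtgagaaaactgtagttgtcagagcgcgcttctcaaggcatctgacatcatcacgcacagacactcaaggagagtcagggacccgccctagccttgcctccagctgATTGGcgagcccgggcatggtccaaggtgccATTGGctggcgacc
Hmgcs1: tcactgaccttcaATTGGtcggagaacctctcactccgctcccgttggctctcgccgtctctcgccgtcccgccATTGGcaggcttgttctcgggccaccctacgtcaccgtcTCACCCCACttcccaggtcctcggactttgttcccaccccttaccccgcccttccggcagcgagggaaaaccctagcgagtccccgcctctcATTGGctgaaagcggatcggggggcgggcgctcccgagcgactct
Mvk held 5 CCAAT matches, Nsdhl and Idi1 2 each and Hmgcs1 3, and Hmgcs1 alone among the 16 of 25 listed genes with a RefSeq promoter held TCACNCCAC, 137 bases before its start. CCAAT was present in 16 of the 19 promoters of these 16 genes (84.2%), against 33.8% of all 32851 promoters of the same length, and 47.4% against 10.1% held 2 or more copies. TCACNCCAC was present in 1 of the 19 (5.26%) against 1.05% of all promoters. The nuclear receptor element AGGTCA, also on either strand, was in 5 of the 19 (26.3%) against 14%. Those 5 belonged to Insig1, Hmgcs1 and Dhcr7 only, with more than 1 promoter of Dhcr7 among them, so the share by gene is lower. Among promoters of the fatty acid synthesis and thyroid hormone induced lists described below, CCAAT was in 13 of 27 (48.1%) and 8 of 21 (38.1%). TCACNCCAC was in 1 of 27 (3.7%) and 1 of 21 (4.76%), shares near that of the cholesterol list. CCAAT is the letters of the box bound by NF-Y, a factor known to act beside SREBP2, and it was searched after the sequences had been seen. A match is a stretch of letters only and was not tied to binding in these livers.

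Over all 17057 genes tested, 2 were higher in T3+T4 than in T3 livers (0.0117%) and 0 were lower (0%) at an adjusted p under 0.05 (edgeR quasi-likelihood test, Benjamini-Hochberg adjustment). At an unadjusted p under 0.05 there were 1054 higher genes (6.18%) and 1111 lower genes (6.51%), and at an adjusted p under 0.1 there were 57 and 48. DESeq2 called 85 higher and 70 lower genes. No overlap between the 2 groups of livers was found for 25 genes that were higher (0.147%) and 15 that were lower (0.0879%). The library totals were 6070280 ± 481634 counts in T3 (SD, n = 6) and 6353684 ± 534439 in T3+T4 (n = 7), and the pairwise correlations of log2 levels among the 13 libraries ran from 0.942 to 0.987. The T3 pups carry the animal numbers 60 to 68 and the T3+T4 pups 72 to 85, so numbering and treatment cannot be told apart. By their sex genes, 5 T3 livers were female and 1 male, and 2 T3+T4 livers were female and 5 male, with 1 liver in each group going against its sex label. T3 liver 61 stood apart at -64.7 on the first principal component, which took 28.0% of the variance, and T3+T4 liver 78 at 32.7 on the second, which took 17.2%.

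Pax8 averaged 11.3 ± 7.1 deposited counts in T3 and 11.1 ± 5.4 in T3+T4, and Dio2 17.7 ± 6.2 and 18 ± 4.9. Dio1 averaged 834.3 ± 353.4 and 1187.9 ± 286.3 counts, although all pups carry the Dio1 deletion. A transcript that keeps part of a targeted gene's sequence can still be counted, so these levels do not check the genotype. The 10 hepatocyte markers summed to a median of 6233 CPM in T3 and 6267 CPM in T3+T4, and 0 of the 10 passed an unadjusted p of 0.05.

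Levels below are CPM, library-scaled counts after TMM, not divided by gene length, written as the lowest, median and highest liver of a group. Fold changes are on the log2 scale with their SE, all for T3+T4 minus T3 unless another comparison is named. Adjusted p values come from the edgeR test over all 17057 genes.

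The 2 genes that rose were Aacs and Tkt. Aacs encodes the cytosolic acetoacetyl-CoA synthetase that feeds ketone body carbon into cholesterol and fatty acid synthesis (ENSMUSG00000029482, chr5:125475814-125517410, plus strand). It stood at 7.02, 12.9 and 20.3 CPM in T3 and at 19.95, 29.2 and 54.4 CPM in T3+T4, a rise of 1.34 ± 0.22 (2.53-fold, adjusted p = 0.0197). T3 liver 60 reached the lowest T3+T4 liver, 79, and the other T3 livers lay below all 7. Tkt encodes transketolase, an enzyme of the non-oxidative pentose phosphate pathway (ENSMUSG00000021957, chr14:30548359-30574720, plus strand). It stood at 72.7, 84.9 and 95 CPM in T3 and at 99.1, 111 and 121 CPM in T3+T4, a rise of 0.37 ± 0.06 (1.29-fold, adjusted p = 0.0197). All 7 T3+T4 livers lay above all 6 T3 livers for Tkt. Both genes had a higher mean in female and in male livers: Aacs went from 13.9 to 41.8 CPM between the 5 and 2 female livers and from 11.2 to 31.2 CPM between the 1 and 5 male livers, and Tkt from 84.2 to 109.5 CPM and from 89.8 to 109.8 CPM. Without T3 liver 61, or without any 1 of the T3+T4 livers 72, 84 and 85, neither gene passed, with adjusted p from 0.0582 to 0.0978 and log2 fold changes from 1.196 to 1.337 for Aacs and from 0.32 to 0.36 for Tkt. Neither passed with the compared groups alone in the fit (adjusted p = 0.218 for both) or with acinar and muscle levels as covariates, and Tkt did not pass with sex as a covariate or without the livers at 5 CPM or more of acinar or muscle markers (adjusted p = 0.311). Both passed with DESeq2.

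**Figure D1:**
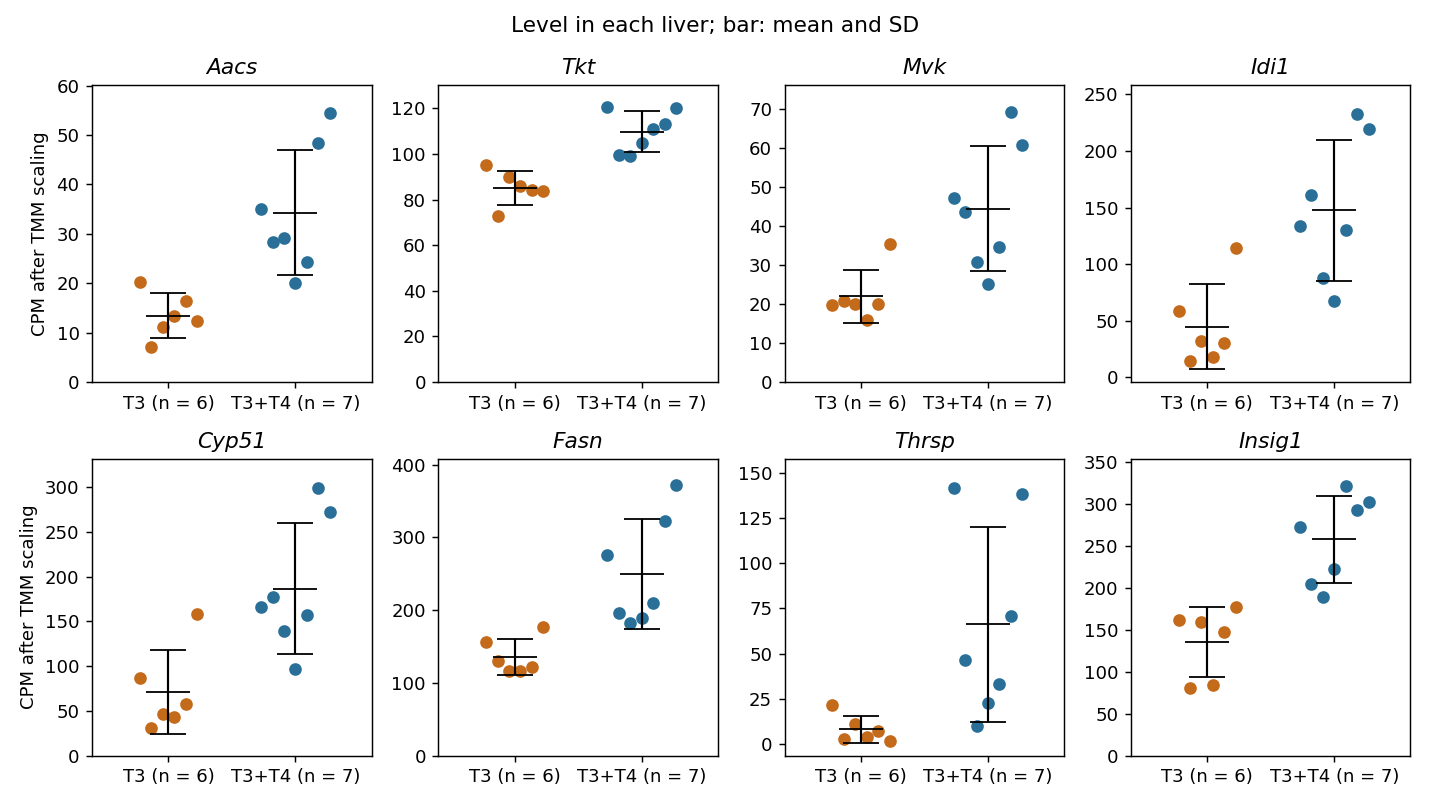
Levels in CPM after TMM scaling of 8 genes in each of the 6 T3 and 7 T3+T4 livers, with 1 dot per liver and bars for the mean and SD. Tkt, Fasn and Insig1 show no overlap between the groups, and T3 liver 68 is the highest T3 liver for Mvk, Idi1, Cyp51, Fasn and Insig1.

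All 25 genes on the list of cholesterol synthesis and uptake had a positive log2 fold change, T3+T4 minus T3, against 8268 of all 17057 genes. The median was 0.79, against -0.01 over all genes tested, and 23 of the 25 passed an unadjusted p of 0.05 in the higher direction, against 6.18% of all genes. At an adjusted p under 0.05 the count was 0, and 11 members were under 0.1. The exceptions at the unadjusted threshold were Ebp, the sterol isomerase (0.13 ± 0.13), and Scarb1, the HDL receptor (0.03 ± 0.05). Summed over the list, the T3 livers held 2139, 2759 and 3880 CPM and the T3+T4 livers 3282, 4211 and 5329 CPM. T3 liver 68 thus lay above the 2 lowest T3+T4 livers, 78 and 79, and the other 5 T3 livers lay below all 7. The lowest T3+T4 levels came from livers 79 (16 of 25 genes) and 78 (9 of 25), and the highest from 84 (15 of 25) and 85 (6 of 25). Liver 68 was the highest T3 liver in 21 of 25, and liver 61 was the lowest T3 liver in 15 of 25.

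Among the regulators, Srebf2, which encodes SREBP2, stood at 92.4, 109 and 181 CPM in T3 and 138, 167 and 222 CPM in T3+T4 (0.51 ± 0.14, adjusted p = 0.127). Insig1, which holds the SREBP complex in the endoplasmic reticulum when sterols are plentiful, stood at 81.1, 153 and 177 CPM and 189, 273 and 322 CPM (0.93 ± 0.31, adjusted p = 0.212). It was the only one of the 25 genes without overlap between the groups, yet its p was not among the smallest. Its means were 135 ± 41.9 CPM in T3, 258 ± 52.2 CPM in T3+T4, 150 ± 64.4 CPM in vehicle and 130 ± 72.9 CPM after T4, and all groups share the estimate of spread. The part of this spread in its p was not tested.

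Early steps of the mevalonate pathway were represented by Hmgcs1, Mvk, Pmvk and Idi1. Hmgcs1, the cytosolic HMG-CoA synthase, stood at 133, 242 and 338 CPM in T3 and 307, 341 and 463 CPM in T3+T4 (0.56 ± 0.16, adjusted p = 0.139). The highest T3 liver for Hmgcs1 lay within the T3+T4 range. Mvk, mevalonate kinase, whose promoter above held the most CCAAT letters of the 4, stood at 16.0, 19.9 and 35.5 CPM and 25.2, 43.5 and 69.2 CPM (1.02 ± 0.21, adjusted p = 0.0537). Pmvk, the next kinase, differed by 0.53 ± 0.13 (adjusted p = 0.0638). Idi1, the isopentenyl diphosphate isomerase, stood at 14.2, 31.3 and 114 CPM and 67.3, 134 and 233 CPM (1.72 ± 0.41, 3.29-fold, adjusted p = 0.0638), the largest log2 fold change of the genes of the list described here. Only liver 68 among the T3 livers reached the T3+T4 range of Idi1.

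Later steps gave the same order of the groups. Fdps, farnesyl diphosphate synthase, stood at 12.03, 15.9 and 36.7 CPM in T3 and 24.2, 40.5 and 77.6 CPM in T3+T4 (1.32 ± 0.29, adjusted p = 0.0557). Sqle, the squalene epoxidase, stood at 11.8, 16.8 and 95.7 CPM and 24.7, 72.9 and 155 CPM (1.5 ± 0.49, adjusted p = 0.203), with liver 68 above the T3+T4 median. Cyp51, the lanosterol demethylase, stood at 30.4, 52.2 and 158 CPM and 96.6, 166 and 299 CPM (1.40 ± 0.33, adjusted p = 0.063). Nsdhl, a sterol dehydrogenase of the demethylation complex, stood at 14.5, 20.4 and 40.5 CPM and 26.4, 53.6 and 98.6 CPM (1.37 ± 0.29, adjusted p = 0.0552). Fdps, Cyp51 and Nsdhl overlapped between the groups through liver 68 only, and for Sqle a second T3 liver, at 31.2 CPM, lay within the T3+T4 range. Lss, lanosterol synthase, and Sc5d, the sterol C5 desaturase, differed by 0.61 ± 0.22 and 0.34 ± 0.11 (adjusted p = 0.264 and 0.213). The genes of this list other than Mvk were named after their values were seen.

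**Figure D2:**
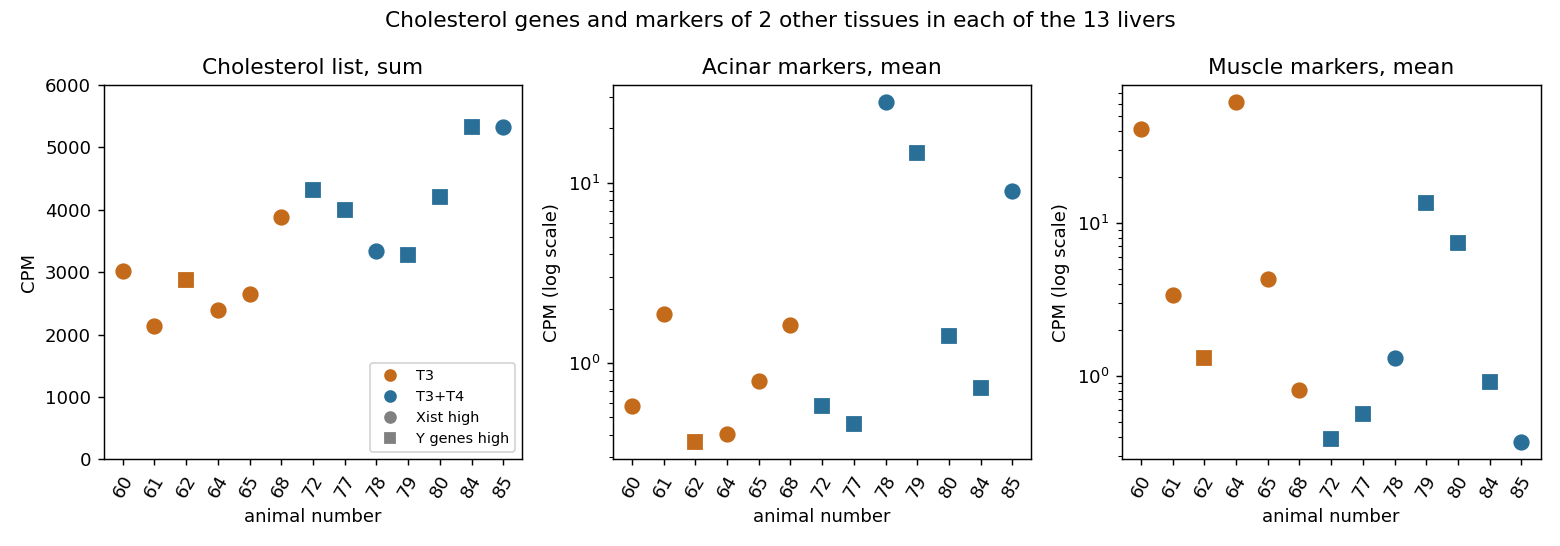
Summed CPM of the 25 cholesterol genes (left), and on log scales the mean CPM of the acinar markers without Cela1 and Amy2a5 (middle) and of the muscle markers (right), in each of the 13 livers by animal number, with the marker shape for the sex genes. T3 liver 68 holds the highest sum of the T3 group at 3880 CPM. T3+T4 livers 79 and 78, with the highest acinar marker levels, hold the lowest sums of theirs at 3282 and 3346 CPM, whereas liver 85, with the next highest acinar level, holds 5328 CPM.

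The count of 23 was read again without the libraries in doubt. It was 23 without T3 liver 61 and T3+T4 liver 78 (median 0.84), 20 with sex as a covariate (median 0.79), and 19 without the livers at 5 CPM or more of acinar or muscle markers, which left 4 T3 and 3 T3+T4 livers (median 0.86). Without liver 68 alone, 11 members passed the adjusted threshold, as did 11 without T3+T4 liver 78, 8 without T3+T4 liver 79, 14 with DESeq2 and 14 without the livers whose sex label was at odds with their sex genes. At the adjusted threshold the count was 0 without T3 liver 61 and without any 1 of T3+T4 livers 72, 84 and 85. It was also 0 with the compared groups only and with sex as a covariate. The number called over all genes also rose without T3+T4 liver 78, with DESeq2 and without the livers whose sex label differs. Those numbers are given below, where the dependence on the processing is described. The shares of all genes at the unadjusted threshold in these fits are not reported here. Within sexes, mean Mvk was 22.4 against 45.8 CPM in female and 19.9 against 43.9 CPM in male livers, and mean Idi1 was 47.2 against 154 CPM and 32.5 against 145 CPM, with 1 male T3 liver.

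Against the other groups, the summed cholesterol list was highest after T3+T4, at 4257 ± 832 CPM (SD, n = 7), and next in control livers, at 3651 ± 711 CPM (n = 5). It was 2824 ± 606 CPM after T3 (n = 6), 2688 ± 251 CPM with T4 alone (n = 8) and 2513 ± 192 CPM with vehicle (n = 5). The vehicle and T4 means lay within 1 SD of the T3 mean, and those of T3+T4 and control lay above it by more. The T3+T4 mean was the highest of the 5 groups for 20 of the 25 genes and above the control mean for 21, whereas the T3 mean was below control for 24. T4 given without T3 is a comparison that shares no liver with the one above. In it the same list had a median log2 fold change of 0.10 against vehicle, and 2 members, Hmgcs1 (0.47 ± 0.17) and Sc5d (0.50 ± 0.12), passed an unadjusted p of 0.05, where 6.13% of all genes were higher and 6.57% lower. Sc5d rose at an adjusted p of 0.0474 (edgeR), 1 of the 70 genes (0.41%) called in that comparison. The test of the difference between both T4 effects, the interaction, was higher with T3 at an unadjusted p under 0.05 for 14 of the 25 genes, against 5.04% of all genes higher and 5.32% lower. At the adjusted threshold 0 of the 25 passed, against 23 genes (0.135%) over the whole table. Of those 23 genes, 7 were pancreatic acinar markers. Mvk differed by 0.93 (unadjusted p = 0.00586 in edgeR), Lss by 1.03 (0.00277) and Insig1 by 1.14 (0.0139), while Hmgcs1 differed by 0.09 (0.695).

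**Figure D3:**
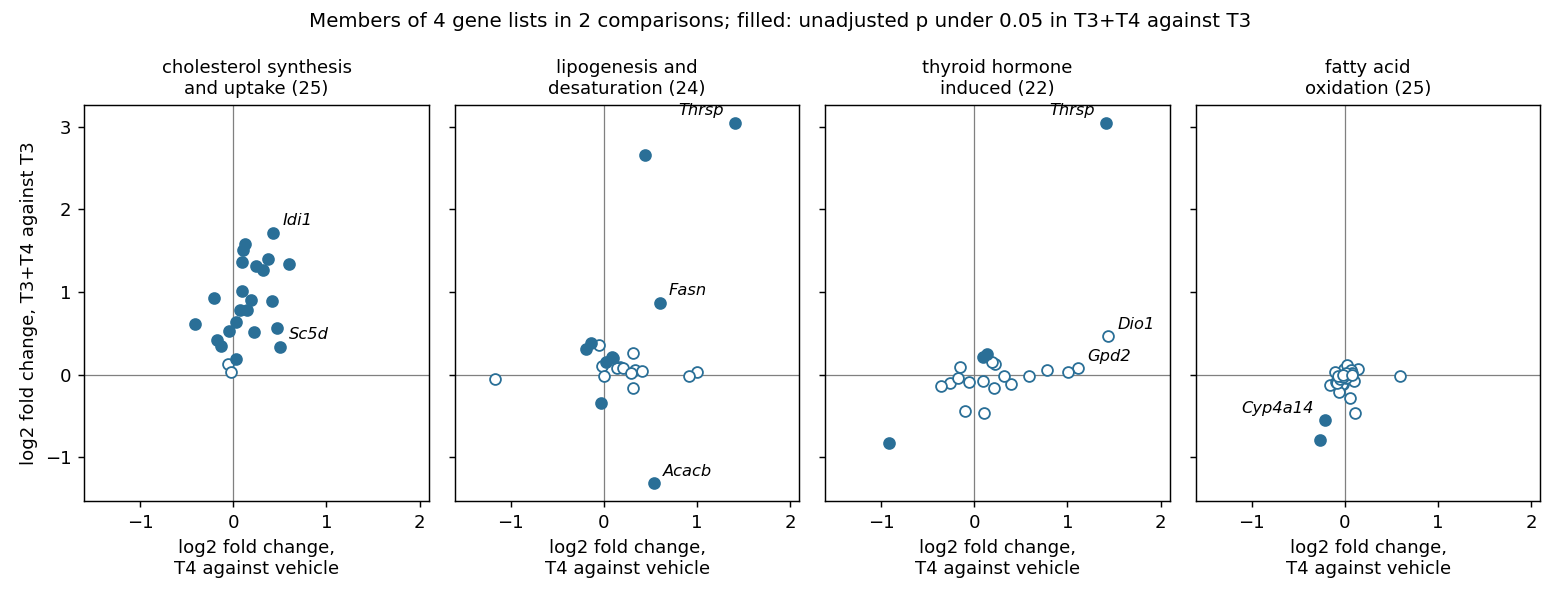
Log2 fold changes of the members of 4 gene lists after T4 against vehicle (horizontal axis) and after T3+T4 against T3 (vertical axis), with filled dots for an unadjusted p under 0.05 on the vertical axis. The cholesterol list sits above 0 on the vertical axis with a median of 0.79 and near 0 on the horizontal axis with a median of 0.10, and Dio1 and Gpd2 of the thyroid hormone induced list lie to the right.

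Among 24 genes of fatty acid synthesis and desaturation, 8 were higher and 2 lower at an unadjusted p under 0.05 (6.18% and 6.51% of all genes), 3 were higher at an adjusted p under 0.1, and the median log2 fold change was 0.09. Fasn, the fatty acid synthase, stood at 116, 126 and 176 CPM in T3 and 183, 210 and 372 CPM in T3+T4 (0.87 ± 0.18, 1.83-fold, adjusted p = 0.0502), without overlap between the groups. Thrsp, the lipogenic regulator Spot 14 and a classical thyroid hormone target, stood at 1.72, 5.33 and 21.6 CPM and 9.81, 46.5 and 142 CPM (3.05 ± 0.67, 8.28-fold, adjusted p = 0.0557). T3 livers 60 and 62 overlapped T3+T4 liver 78 for Thrsp, and T3+T4 livers 72 and 85 were the highest. Elovl3, a very long chain fatty acid elongase, was low in T3 at 0.172, 0.394 and 2.54 CPM and stood at 0.806, 3.73 and 9.81 CPM in T3+T4 (2.66 ± 0.66, adjusted p = 0.0751). Its lowest T3 level lies at the lowest deposited count of 1. Acaca, the cytosolic acetyl-CoA carboxylase, differed by 0.21 ± 0.07 (adjusted p = 0.233), Acly, ATP citrate lyase, by 0.38 ± 0.14 (0.254) and Gpam, the first enzyme of triglyceride synthesis, by 0.32 ± 0.13 (0.325).

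The 2 lower members were Scd2 and Acacb. Scd2, a stearoyl-CoA desaturase of young liver, stood at 83.8, 99.6 and 103 CPM in T3 and 66.2, 72.0 and 88.8 CPM in T3+T4 (-0.35 ± 0.12, adjusted p = 0.247). Acacb, the mitochondrial acetyl-CoA carboxylase, had medians of 17.8 and 21.2 CPM but a T3 maximum of 162 CPM in liver 61 and 81.8 CPM in liver 68, and its fitted value of -1.31 ± 0.48 (adjusted p = 0.273) goes against the order of the medians. Within sexes, mean Fasn was 140 against 277 CPM in female and 117 against 239 CPM in male livers. T4 without T3 gave 9 higher and 1 lower member of the list at an unadjusted p under 0.05 (6.13% and 6.57% of all genes) and a median of 0.19, with Fasn at 0.60 ± 0.19 and Thrsp at 1.41 ± 0.86, and the interaction p was 0.297 for Fasn and 0.151 for Thrsp, both unadjusted. Elovl3, Acly, Scd2, Acacb and Gpam were named after their values were seen.

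Fatty acid oxidation and ketogenesis, 25 genes tested, gave 0 higher and 2 lower genes at an unadjusted p under 0.05, near the share of all genes (6.18% higher and 6.51% lower). A negative fold change was found for 18 of the 25, against 8789 of all 17057 genes. Both lower genes were omega-hydroxylases of the Cyp4a family, targets of PPAR alpha, whose near-identical copies make the split of their reads uncertain. Cyp4a14 stood at 385, 453 and 554 CPM in T3 and 208, 288 and 452 CPM in T3+T4 (-0.55 ± 0.13, adjusted p = 0.063), and 5 of the 7 T3+T4 livers lay below every T3 liver. Cyp4a10 stood at 184, 251 and 360 CPM and 67.5, 145 and 237 CPM (-0.79 ± 0.25, adjusted p = 0.186). The groups overlapped for both genes. After T4 alone the differences from vehicle were -0.21 ± 0.13 for Cyp4a14 and -0.26 ± 0.25 for Cyp4a10.

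Classical thyroid hormone targets of liver gave a median log2 fold change of -0.02 between T3+T4 and T3 livers. Of 22 tested genes of that list (Mup1 was not tested), 3 were higher (Thrsp, Acaca and Hectd3, at 0.25 ± 0.09) and 1 was lower at an unadjusted p under 0.05. Over all genes tested, 6.18% were higher and 6.51% lower at that threshold. The lower gene was Ppargc1a, a coactivator of mitochondrial and gluconeogenic genes, at 64.6, 100 and 393 CPM in T3 and 58.2, 76.6 and 101 CPM in T3+T4 (-0.82 ± 0.32, adjusted p = 0.3). Its T3 maximum came from liver 61, and the next T3 liver was at 129 CPM.

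Dio1, itself a T3 target, stood at 60.2, 124 and 203 CPM in T3 and 115, 195 and 245 CPM in T3+T4 (0.47 ± 0.25, 95% interval -0.05 to 0.98, adjusted p = 0.45). Against vehicle, T4 alone gave 1.44 ± 0.32 for Dio1 (adjusted p = 0.041), from 12.7 ± 4.42 to 34.3 ± 16.7 CPM, and the interaction was -0.97 (unadjusted p = 0.0219). Gpd2, the mitochondrial glycerol phosphate dehydrogenase, gave 0.08 ± 0.27 on T3 (95% interval -0.48 to 0.64) and 1.11 ± 0.30 against vehicle (unadjusted p = 0.0147 for the difference). Bcl3, a nuclear cofactor of NF-kappaB, gave 0.06 ± 0.19 and 0.78 ± 0.21 (0.0145), and Me1, malic enzyme, gave 0.03 ± 0.32 and 1.00 ± 0.36 (0.0504). The sign on T3 was not fixed for Gpd2, Bcl3 and Me1, since each turned under at least 1 other setting of the analysis. The T3 and T3+T4 means were 229 ± 68.3 and 242 ± 55.5 CPM for Gpd2, and 115 ± 52.7 and 117 ± 37.3 CPM for Me1.

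**Figure D4:**
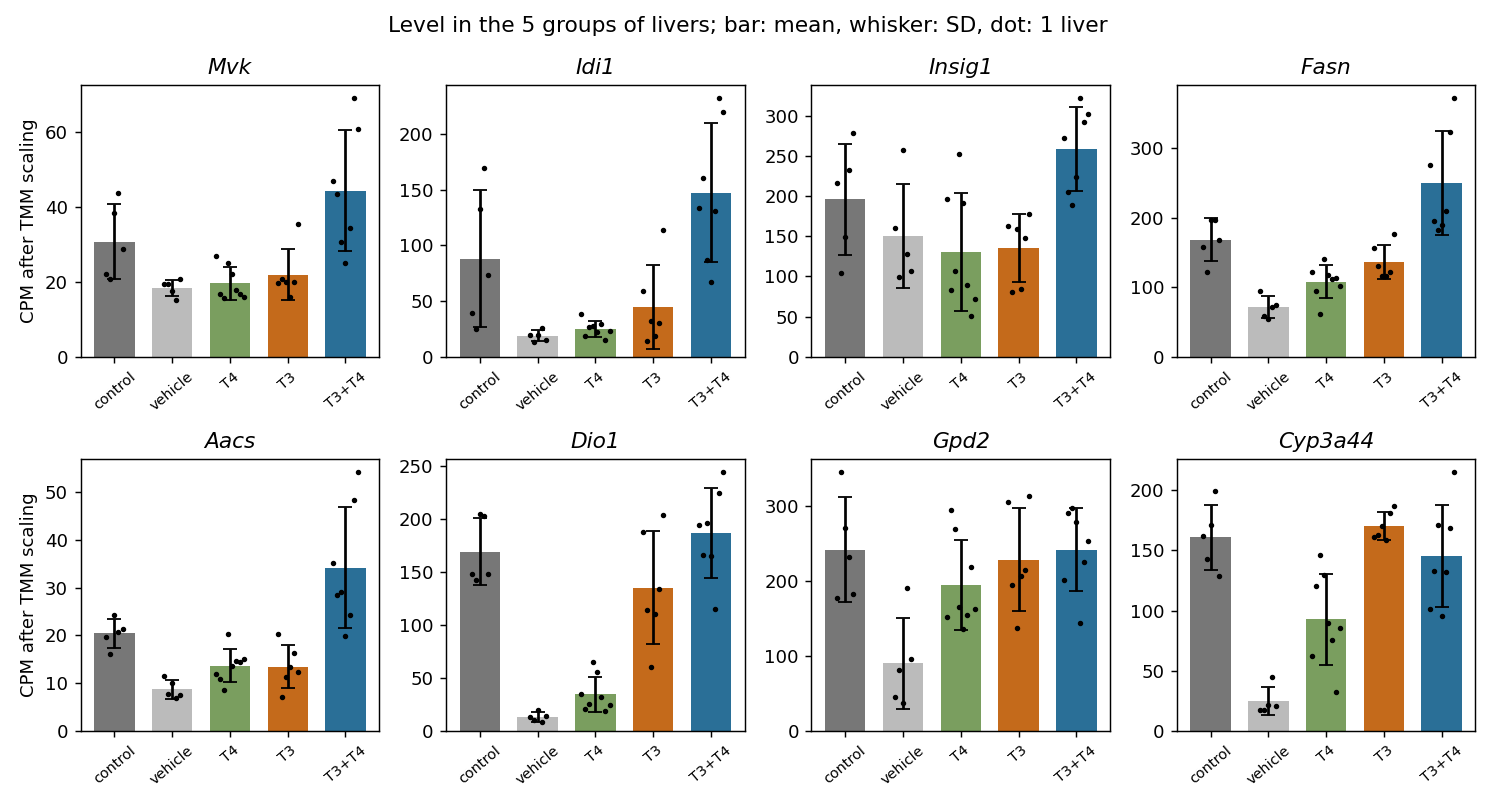
Levels in CPM after TMM scaling of 8 genes in the 5 groups of livers, with bars for the mean, whiskers for the SD and dots for single livers. Mvk, Idi1 and Fasn are highest after T3+T4, at means of 44.4, 147 and 250 CPM, whereas Dio1, Gpd2 and Cyp3a44 separate vehicle from the 2 groups given T3.

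Of the 70 genes that T4 changed against vehicle (36 higher and 34 lower), 46 had the same direction in T3+T4 against T3, 5 of them at an unadjusted p under 0.05, and 24 had the opposite one. Over all 17057 genes, 9163 had the same direction in both comparisons, and 6.18% were higher and 6.51% lower at that threshold in T3+T4 against T3, so 5 of 70 was near the background share. For 6 of the 70 the interaction passed an adjusted p of 0.05. One of the 6 was Cyp3a44, a cytochrome P450 of the Cyp3a family, which stood at 24.3 ± 11.7 CPM in vehicle, 92.6 ± 37.9 after T4, 170 ± 11.6 after T3 and 145 ± 42.7 after T3+T4. The T4 effect was 1.93 ± 0.28 without T3 and -0.23 ± 0.24 with it, and the difference of -2.16 ± 0.36 had an adjusted p of 0.0157 (edgeR). The interaction also passed for Aox3 and Msr1, which were not among the 70 genes. Aox3, an aldehyde oxidase, had -0.33 ± 0.09 without and 0.25 ± 0.09 with T3 (difference 0.59, adjusted p = 0.0336). Msr1, the macrophage scavenger receptor, had 0.22 ± 0.10 without and -0.44 ± 0.09 with T3 (difference -0.66, adjusted p = 0.0319). Its 6 T3 livers, at 91.4, 106 and 125 CPM, all lay above its 7 T3+T4 livers, at 67.8, 79.7 and 85.6 CPM. Cyp3a44 and Msr1 were named after their values were seen. With acinar and muscle levels as covariates, T4 against vehicle gave 25 genes and the interaction 2, in place of 70 and 23.

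Counts for the other metabolic lists are at an unadjusted p under 0.05, at which 6.18% of all genes were higher and 6.51% lower, and none of their members passed the adjusted threshold. In gluconeogenesis and glycogen, 4 of 17 were higher and 2 lower, led by Pklr, the liver pyruvate kinase, at 55.3, 125 and 176 CPM in T3 and 157, 175 and 209 CPM in T3+T4 (0.53 ± 0.15, adjusted p = 0.138), and Ppp1r3b, a glycogen-targeting subunit of protein phosphatase 1 (0.79 ± 0.26, 0.213). In the growth hormone and IGF axis, 2 of 15 were higher and 3 lower, and the carrier proteins Igfbp2 (-0.32 ± 0.08, adjusted p = 0.0865) and Igfbp1 (-0.26 ± 0.09, 0.203) had the smallest p. Igfbp2 stood at 258, 301 and 355 CPM and 215, 242 and 273 CPM, with overlap. In hormone conjugation, 4 of 17 were higher and 0 lower, with Ugt2b1 at 0.27 ± 0.10 and Sult1c2 at 0.42 ± 0.17, enzymes of the glucuronosyl- and sulfotransferase families.

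Hormone transport, binding, receptors, coregulators and deiodinases gave 2 higher and 3 lower genes of 28. Slc7a5, the light chain of an amino acid carrier that also moves thyroid hormones, stood at 18.8, 29.1 and 45.1 CPM in T3 and 15.0, 18.6 and 24.5 CPM in T3+T4 (-0.57 ± 0.17, adjusted p = 0.159). Slco1a1, an organic anion carrier, differed by -0.86 ± 0.33 (0.298). Bile acid synthesis and transport gave 1 higher and 2 lower of 19, with the sterol exporter subunit Abcg8 at -0.33 ± 0.10 (0.183) and the bile acid receptor Nr1h4 at 0.23 ± 0.09 (0.276). The P450 list gave 2 higher and 3 lower of 22, with Cyp2d9, one of several close copies, at -0.51 ± 0.16 (0.188). The urea cycle and amino acid list gave 0 of 16, and mitochondrial respiration 0 higher and 1 lower of 24.

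Genes of the fetal and neonatal liver had negative fold changes in 11 of 12, against 8789 of all 17057 genes. Of the 12, 4 were lower at an unadjusted p under 0.05, against 6.51% of all genes. Peg3, a paternally expressed zinc finger gene, stood at 597, 769 and 1068 CPM in T3 and 264, 389 and 739 CPM in T3+T4 (-0.92 ± 0.25, adjusted p = 0.127), and the mean was 1001 ± 322 CPM in vehicle and 532 ± 201 in control. T3 livers 61 and 68 were the highest and T3+T4 liver 78 overlapped the T3 group. Afp, alpha-fetoprotein, stood at 146, 229 and 285 CPM and 90.6, 152 and 232 CPM (-0.51 ± 0.22, 0.338). The count of 4 was 5 without T3 liver 61 and T3+T4 liver 78, 2 with sex as a covariate or without any 1 of T3 liver 65 and T3+T4 livers 72, 79 and 84, and 1 without the livers whose sex label was at odds with their sex genes. The shares of all genes in these fits are not reported here.

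The 20 cell cycle genes all had positive fold changes, against 8268 of all 17057 genes, with a median of 0.52. Birc5, the mitotic regulator survivin, was at 5.35, 17.7 and 41.6 CPM in T3 and 20.4, 31.9 and 48.5 CPM in T3+T4 (0.71 ± 0.33, adjusted p = 0.379) and was the 1 gene past the unadjusted threshold. Cdk1, the mitotic kinase, differed by 0.59 ± 0.29 (0.404). The median moved with single livers: without T3 liver 61, the lowest, it was 0.30 with 0 genes past the threshold, and without T3 liver 65 it was 0.87 with 17. The shares of all genes in these fits are not reported here. T4 against vehicle, which shares no liver with T3+T4 against T3, gave the list a median of 0.51. There 2 members were higher and 0 lower at an unadjusted p under 0.05 (6.13% and 6.57% of all genes). The median interaction was 0.04. In the clock list 4 of 17 genes were higher and 0 lower (6.18% and 6.51% of all genes), with Hlf at 0.32 ± 0.12 and Per3 at 0.45 ± 0.19 (adjusted p = 0.272 and 0.338), and T4 alone gave 0 higher and 5 lower (6.13% and 6.57% of all genes).

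For markers of other cells in the liver, 0 blood, immune, endothelial, stellate or bile duct genes passed the adjusted threshold, and in whole liver fewer cells of a type and less RNA per cell cannot be told apart. The 11 granulocyte markers all had negative fold changes (median -1.02), against 8789 of all 17057 genes. Their summed level was 89.4, 215 and 474 CPM in T3 and 72.2, 124 and 236 CPM in T3+T4. The chemokine receptor Cxcr2 (-1.27 ± 0.39, adjusted p = 0.164) and the neutrophil elastase Elane (-1.18 ± 0.52, 0.35) were among the 3 past the unadjusted threshold, at which 6.51% of all genes were lower. The count of 3 was 10 without T3 liver 61 and 8 without T3 liver 68 or T3+T4 liver 77, and with the acinar and muscle covariates it was 0 and the median -0.19. The shares of all genes in these fits are not reported here. The 10 Kupffer cell and macrophage markers also all had negative fold changes (median -0.13), with 1, Vsig4 (-0.26 ± 0.11, 0.317), past the unadjusted threshold, and their interaction was lower for 8 of 10 at an unadjusted p under 0.05, against 5.32% of all genes. Cd68, a lysosomal protein of macrophages, was at 0.21 ± 0.12 after T4 alone and -0.20 ± 0.11 on T3.

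Lyve1, the hyaluronan receptor of sinusoidal and lymphatic endothelium, stood at 71.7, 93.0 and 150 CPM in T3 and 47.9, 63.9 and 79.2 CPM in T3+T4 (-0.72 ± 0.15, adjusted p = 0.0502), with the highest T3 levels in livers 61 and 68. The T3 mean of 103 ± 35.6 CPM was also above control (80.8 ± 8.36) and vehicle (75.7 ± 9.93). Stab2, a scavenger receptor of the same cells, differed by -0.12 ± 0.05 (0.355), and the other 8 endothelial markers did not pass the unadjusted threshold. The erythroid, lymphocyte and cholangiocyte lists had 0 genes past it, and the stellate list had 2 lower of 12 (6.51% of all genes).

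Markers of 2 other tissues, pancreatic acini and skeletal muscle, were high in some livers. Of the 10 pancreatic acinar markers tested, 9 were higher at an unadjusted p under 0.05 (median 4.4), and their sum was 24.95, 45.6 and 119 CPM in T3 and 71.4, 111 and 304 CPM in T3+T4. Without Cela1 and Amy2a5, which control livers also hold, the mean marker level was 28.0, 14.6 and 9.002 CPM in T3+T4 livers 78, 79 and 85 and at most 1.86 CPM in the other 10. Cel, the bile salt stimulated lipase of pancreas, was at 0.151, 0.170 and 0.298 CPM in T3 and 0.147, 3.17 and 49.1 CPM in T3+T4. The T3 levels lie at or next to the lowest deposited count of 1. Cela1 stood apart from this pattern at 11, 12.8 and 18 CPM and 18.5, 22 and 25.7 CPM (0.67 ± 0.14, adjusted p = 0.0541), without overlap. All 7 muscle markers tested were lower at an unadjusted p under 0.05 (median -2.30), with sums of 5.68, 26.9 and 431 CPM in T3 and 2.57, 6.41 and 94.0 CPM in T3+T4. The means were highest in T3 livers 60 (40.8 CPM) and 64 (61.6 CPM), where Myh1, a fast myosin heavy chain, reached 65.8 and 67.3 CPM, and Actn3, the fast fibre actinin, 7.75 and 16.8 CPM. Muscle markers averaged 5 CPM or more in 3 of 8 T4, 2 of 6 T3 and 2 of 7 T3+T4 livers, and in 0 control and 0 vehicle livers. The source of the acinar and muscle RNA was not tested. Its part in the genes above was not tested beyond the fits with these levels as covariates and without these livers.

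Leading genes outside the lists included Col4a4, higher, and Rasd2 and Gp49a, lower, each at an adjusted p of 0.0502. Rasd2, a small GTPase, reached 44.8 and 39.9 CPM in T3 livers 61 and 68 and at most 6.96 CPM in the other T3 livers, against 1.52, 2.39 and 3.31 CPM in T3+T4 (-2.80 ± 0.55). Gp49a, a receptor of myeloid cells with a close copy that could share its reads, stood at 8.92, 10.5 and 17.6 CPM and 3.51, 5.41 and 9.27 CPM (-1.08 ± 0.22). Gp49a levels were 11.1 ± 1.97 CPM in vehicle and 3.94 ± 1.02 in control. The groups overlapped for Rasd2 and Gp49a.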

How the data were processed

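RNA was extracted with TRIzol and 1 ug entered a stranded mRNA kit, per the labels' protocols. The authors deposited whole-number counts per gene for 43629 genes. No count is under 1 and 50.1% equal 1, as if each had been raised by 1, a step that is not stated. The submitters' processing notes name bcl2fastq, Trimmomatic, BWA 0.7.10, DESeq and GRCh38, a human build, whereas per the file headers the build was mm10. The counting tool, its use of strand and the annotation were not given in the sources used here.

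Columns were matched to animals by number. Counts as deposited were scaled by TMM and filtered by filterByExpr to 17057 genes. edgeR 4.0.16 (glmQLFit, glmQLFTest, R 4.3.3) was fitted with 1 mean per group over all 31 libraries, with Benjamini-Hochberg adjustment at 0.05 over all genes. The labels do not say which samples share a litter, so p-values measure the spread between pups within groups, estimated over all 31 libraries. They do not measure the spread between litters. GENCODE M21 (mm10) gave positions for 42462 of 43629 gene IDs. The fit was also run on simulated counts, in which livers did not differ in sex or in acinar and muscle RNA. That run cannot speak to those features, and its outcome is not reported here.

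The comparison and the 29 gene lists were chosen with earlier results of these data known. Named genes were Pax8, Dio1 and Dio2, the 10 largest changes each way with an adjusted p under 0.05, at least 5 CPM and no overlap between the groups, filled up to 3 by the smallest unadjusted p, up to 4 passing (otherwise 2) members of each list, and members of the thyroid hormone induced list. Members chosen for lists not described one by one are covered by their counts, and some named genes are not reported here. Alternatives were other scalings and filters, DESeq2 1.42.0, covariates for sex, library total and acinar and muscle levels, fits of the compared groups only, and leaving out libraries.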

Additional observations from a re-analysis of the deposited data

Results flagged for a closer look

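Among 134 gene and group pairs examined for 1 liver far from the rest of its group, 9 stood out, and chance gives about 1 in 20 such pairs. T3 liver 68 was highest for 2 cholesterol genes, with Mvk at 35.5 CPM (next 20.7) and Sqle at 95.7 CPM (next 31.2). T3 liver 61 was highest for Ppargc1a at 393 CPM (next 129) and for Slco1a1 at 34.6 CPM (next 16.9). T3 liver 60 was highest for Elovl3 at 2.54 CPM (next 0.645) and for Cel at 0.298 CPM (next 0.193). Both Cel levels lie at or next to the lowest deposited count of 1. T3+T4 liver 78 was highest for Vldlr, the VLDL receptor, at 32.8 CPM (next 18.4), and lowest for Gpam at 107 CPM (next 150.5) and for Hlf at 183 CPM (next 213).

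The change with T4 differed between pups with and without T3, by the edgeR interaction, for 4 of the named genes. The difference was -0.66 ± 0.13 for Msr1 (adjusted p = 0.0319), 0.59 ± 0.12 for Aox3 (adjusted p = 0.0336) and -2.16 ± 0.36 for Cyp3a44 (adjusted p = 0.0157). It was 10.97 ± 2.03 for the pancreatic gene Cel (adjusted p = 0.027), whose mean was 11.6 ± 19.1 CPM in vehicle and 14.4 ± 19.3 CPM after T3+T4, in each case from a few livers.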

How the results depend on the processing

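Counts of genes at an adjusted p under 0.05 depended on the setting. T3+T4 against T3 gave 2 in the fit over all groups, 13 with no filter, 0 with the compared groups only, 1 with sex as a covariate, 37 without livers whose sex label differs, 91 with library total as a covariate, 7 with acinar and muscle covariates, 16 without T3 liver 61 and T3+T4 liver 78 (added after seeing the data) and 155 with DESeq2. Leaving out 1 liver gave 0 (T3 61, T3+T4 72, 84 or 85) to 110 (T3+T4 78). T4 against vehicle (70) gave 34 with no filter, 25 with the compared groups only, 25 with acinar and muscle covariates, 0 without acinar or muscle libraries, 1 with the shortened acinar list, 235 with DESeq2, and 14 to 93 with 1 liver left out. The interaction (23) gave 14 with no filter, 10 at a mean of at least 5 CPM, 9 without sex labels that differ, 2 with acinar and muscle covariates, 0 with the shortened acinar list, 5 without T3 61 and T3+T4 78, 109 with DESeq2 and 1 to 39 with 1 liver left out. The cause was not tested. Leaving out livers by the full acinar and muscle lists left 0 of 7 T3+T4 livers and gave no value.

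Aacs kept its direction in 28 alternatives (1.196 to 1.661) and passed in 21, and Tkt (0.32 to 0.43) in 19. The cholesterol list kept 19 to 23 of 25 genes past an unadjusted p of 0.05 and a median of 0.68 to 1.057. Genes near 0 turned sign. Bcl3 was -0.028 without livers whose sex label differs, -0.038 with acinar and muscle covariates, and -0.043 to 0.15 with 1 liver left out. Me1 was -0.047 with library total, -0.40 with acinar and muscle covariates, -0.19 with the shortened acinar list, and -0.12 to 0.19 with 1 liver left out. Gpd2 was -0.025 without T3 61 and T3+T4 78, -0.026 in the compared groups only without them, and -0.029 to 0.19 with 1 liver left out. Scarb1 ran from -0.0041 to 0.064 with 1 liver left out. No paired analysis was possible because the 2 groups share no animal number.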

Other observations

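Col4a3 and Col4a4 encode collagen IV chains of specialised basement membranes and lie head to head on chromosome 1, Col4a4 at 82448423 to 82586849 on the minus strand and Col4a3 at 82586921 to 82722059 on the plus strand (mm10). Col4a4 stood at 4.23, 6.28 and 10.3 CPM (lowest, median and highest) in T3 and 9.51, 14.2 and 59.1 CPM in T3+T4 (1.95 ± 0.38, adjusted p = 0.0502, edgeR). Col4a3 stood at 2.42, 13.2 and 22.1 CPM and 15.7, 23.3 and 122 CPM (2.08 ± 0.50, adjusted p = 0.0638). Both were highest in T3+T4 livers 72, 84 and 85, and both overlapped between the groups. The vehicle means were 2.83 ± 0.62 CPM for Col4a4 and 2.42 ± 0.85 CPM for Col4a3, and the control means 12.1 ± 6.92 and 26.2 ± 19.4 CPM. After T4 alone they were 3.46 ± 0.55 and 2.79 ± 1.11 CPM.

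Vldlr, which binds triglyceride-rich lipoproteins, went the other way. It stood at 17.6, 45.1 and 86.3 CPM in T3 and 7.90, 12.8 and 32.8 CPM in T3+T4 (-1.57 ± 0.36, adjusted p = 0.062), and its means were 129 ± 39.3 CPM in vehicle, 73.2 ± 34.7 after T4 and 26.1 ± 14.3 in control. Of 13 immediate early genes, 0 passed an unadjusted p of 0.05 between T3+T4 and T3 (6.18% of all genes higher and 6.51% lower). Between T4 and vehicle 8 were lower (6.57% of all genes). Col4a3 and Vldlr were chosen after their values were seen.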
